A study of Mus musculus with 18 samples.

Results

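The mTOR pathway and its nutrient-sensing arm were followed as a set of 44 named genes, which encode the mTOR complexes, the TSC complex and Rheb, the Rag and Ragulator proteins, the GATOR complexes, sestrins, the insulin arm, AMPK and the direct effectors of the kinase. The rule lists them by name and uses no measured value, although the list was drawn up with earlier results of these data known. Of these, 41 were among the 11243 genes counted, and Rragd, Sesn3 and Irs2 were not analysed here.

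mTOR is a protein kinase that works in a pair of complexes. mTORC1, defined by Rptor, drives protein synthesis through its substrates, and mTORC2, defined by Rictor, phosphorylates AKT. Growth factor signals reach mTORC1 through AKT, the TSC complex and the GTPase Rheb, whereas amino acids act through Rag GTPases, which sit on the lysosome with the Ragulator complex and recruit mTORC1 there. GATOR1 inhibits the Rag GTPases, GATOR2 restrains GATOR1, and the sestrins, of which Sesn2 binds leucine, act on GATOR2. Torin1 inhibits the kinase directly in both complexes.

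RAW264.7 cells, a mouse macrophage line, received vehicle (DMSO, the control), LPS at 500 ng/mL for 6 h, or LPS for 6 h after a 15 min start with torin1 at 100 nM, which stayed on the cells. All cells are of a single line with no genetic change, the labels give no time for the control, and torin1 without LPS is not among the 18 libraries, so every torin1 value belongs to LPS-treated cells. From each of 3 independent experiments and each treatment, total mRNA and mRNA of pooled heavy polysome fractions (polysome-associated mRNA) were sequenced from the same lysate, giving 6 groups with n = 3. The total count per library ran from 27800983 to 47725557. All 8 macrophage markers were counted, with a summed level of 11511 to 21694 CPM (library-scaled counts), whereas 0 of 7 markers of T and B cells and 1 of 8 of fibroblasts and epithelia were counted, the latter at no more than 1.72 CPM. CPM and fold changes give shares of the sequenced mRNA, so a change in RNA per cell cannot be seen in them. Exons of 14 members overlap a gene on the opposite strand (Rptor, Mlst8, Akt1s1, Tsc2, Rragc, Lamtor1, Slc38a9, Nprl3, Seh1l, Wdr59, Prkag1, Stk11, Rps6kb1 and Rps6kb2), and their values are uncertain by the reads in these overlaps, since the counting is not stated to use strand.

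Replicates are numbered by experiment. Fold changes are given on the log2 scale ± SE, levels as TMM-scaled CPM, and every adjusted p is from edgeR's quasi-likelihood test over all 11243 genes. A gene was called higher or lower at an adjusted p of at most 0.25, the threshold of the study. This is lenient, and a call by itself is common, as the shares of all genes called in each comparison show. Calls of members between treatments that were lost without 1 replicate are therefore given where those calls are described, as replicates left out or as a number of alternatives. The replicate numbers mark shared experiments, so a change printed as not called that was called with the replicate number in the model (the replicate block) is given with that adjusted p, and counts out of 9 alternatives leave aside the stricter threshold of 0.05. The comparisons with torin1 share the LPS or the control libraries with the comparison of LPS with control, so their values are set side by side and are not independent of each other.

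With LPS, in no complex or group among the 41 members were all genes called in 1 direction, which was not compared with other groups of genes. In total mRNA, Sesn2 rose 5.29-fold and Sesn1 fell 4.90-fold, and among the remaining called members the range was −0.79 (Eif4ebp2) to 0.71 (Larp1). Of the 41 members, 14 were higher and 9 lower with LPS in total mRNA, against 32.2% and 34.3% of all genes. In polysome-associated mRNA 9 were higher and 5 lower, against 26.4% and 28.7% of all genes, and with the replicate block 11 were higher and 11 lower, against 29.8% and 33% of all genes in that fit. The number called, 14, was 8 without replicate 1 or 3 and 24 without replicate 2. The median size of the change was 0.24 in the members and 0.39 in all genes for total mRNA, and 0.22 and 0.41 for polysome-associated mRNA.

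Torin1 in LPS-treated cells lowered Sesn2 and raised Maf1, Rragc, Tsc1 and Wdr59 in both RNA types. Relative to LPS alone, 12 members were higher and 4 lower in total mRNA, against 27.3% and 26.4% of all genes. The 12 include all 3 GATOR1 genes, of which 0 were called in polysome-associated mRNA, and the call of Nprl2 did not hold in all alternatives. In polysome-associated mRNA 7 were higher and 3 lower, against 20.3% and 18.2% of all genes, and the replicate block gave 10 higher and 6 lower, against 25.4% and 24.3% of all genes in that fit. The number called, 10, was 5 without replicate 1 and 4 without replicate 3. The median size of the change was 0.16 in the members and 0.29 in all genes for total mRNA, and 0.22 and 0.31 for polysome-associated mRNA.

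Cells given LPS with torin1 differed from control cells chiefly in Sesn1, which was low, and in Rragc, Wdr59, Rictor and Rraga, which were high. In this comparison 14 members were higher and 7 lower in total mRNA, against 33.1% and 33.6% of all genes, and 10 were higher and 9 lower in polysome-associated mRNA, against 28.5% and 29.7%. The latter number, 19 in all, was 11 without replicate 1 and 7 without replicate 3. Across the 3 comparisons and both RNA types, 9 members were not called in the main tests, namely Mtor, Tsc2, Tbc1d7, Lamtor2, Lamtor5, Mios, Prkag1, Stk11 and Rps6kb1. Their log2 fold changes lay between −0.31 (Stk11, polysome-associated mRNA, LPS against control) and 0.22 (Tbc1d7, polysome-associated mRNA, LPS with torin1 against LPS). With the block, Tsc2 was called lower with LPS in total mRNA (−0.13, adjusted p = 0.200), Stk11 lower with LPS on polysomes (−0.37, adjusted p = 0.222) and higher with torin1 against LPS in total mRNA (0.18, adjusted p = 0.218), and Lamtor2 lower on polysomes in LPS with torin1 against control (−0.22, adjusted p = 0.147). The block likewise called Mtor and Rps6kb1 in comparisons given with their levels, and itself gave no call for 4 members, Tbc1d7, Lamtor5, Mios and Prkag1. Other alternatives called some of the 9 as well. Without replicate 2, Mios (0.34, adjusted p = 0.137) and Lamtor5 (0.36, adjusted p = 0.216) were higher on polysomes with LPS. Stk11 (−0.61, adjusted p = 0.0222) and Mtor (−0.23, adjusted p = 0.214) were lower there. One model over all libraries called Prkag1 lower on polysomes with torin1 against LPS (−0.19, adjusted p = 0.192).

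**Figure D1:**
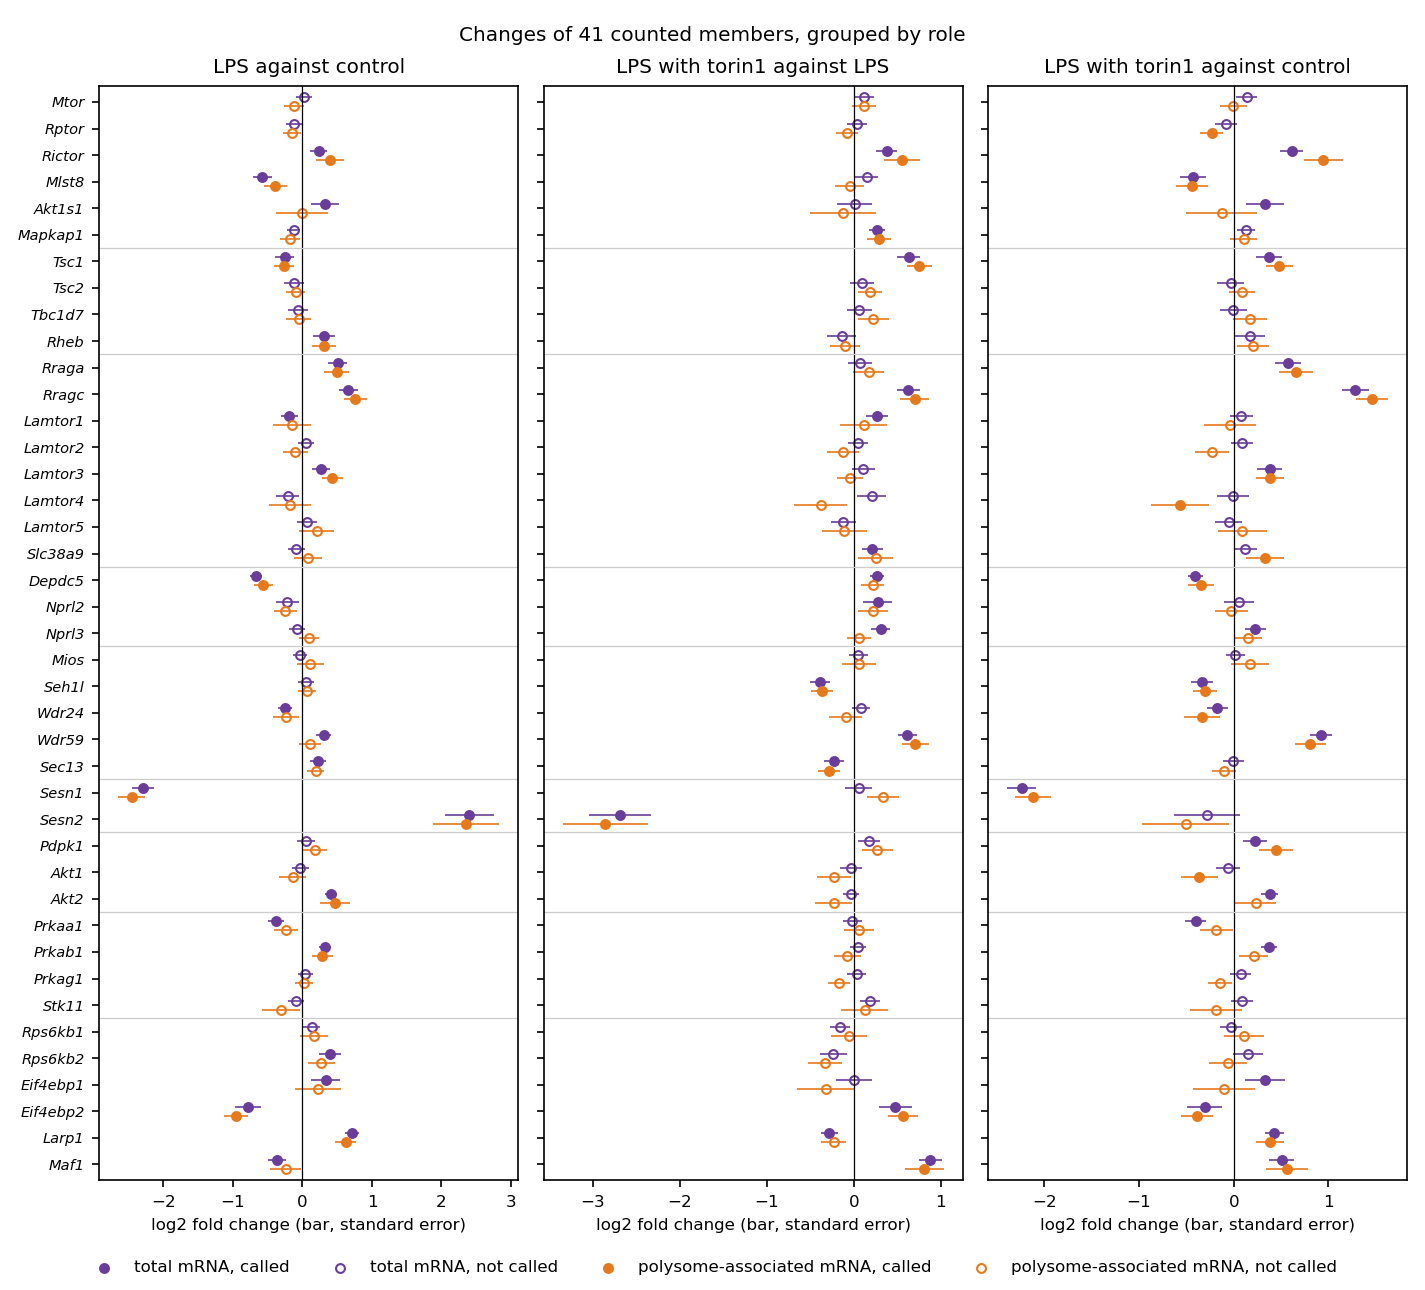
Log2 fold changes (x axis) of the 41 counted members (y axis, grouped by role) in 3 comparisons, with total mRNA in purple, polysome-associated mRNA in orange, bars for the standard error and filled points for an adjusted p of at most 0.25. Sesn1 at −2.29 and Sesn2 at 2.40 stand apart from the other members with LPS, and Sesn2 at −2.69 does so with torin1.

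The kinase itself changed little. Mtor (chr4:148448611-148557683, GRCm38, plus strand) was at 123.1, 127 and 143 CPM in total mRNA of control cells, at 120, 128 and 152 with LPS and at 137, 147 and 149 with LPS and torin1. Its polysome-associated mRNA was at 166, 126 and 151 CPM in control cells, 131.2, 135.4 and 141 with LPS and 143, 148 and 144 with torin1. The treatments overlap in total mRNA, the 3 polysome libraries with LPS lay just below those with torin1, and the largest of the 6 log2 fold changes was 0.14 ± 0.11 (LPS with torin1 against control, total mRNA, adjusted p = 0.345). With the replicate block this change was called (adjusted p = 0.146), as was 0.12 in torin1 against LPS in total mRNA (adjusted p = 0.242).

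Rptor, the scaffold of mTORC1 that binds its substrates, was at 97.2, 111.9 and 119.4 CPM in total mRNA of control cells, at 87.8, 105.9 and 109 with LPS and at 100, 103 and 107.4 with torin1. In polysome-associated mRNA it was at 182, 154 and 163 CPM in control cells, 152, 150 and 149 with LPS and 137, 142 and 138 with torin1. All 3 polysome libraries of torin1-treated cells lay below all those of the other treatments. Rptor was called there only in LPS with torin1 against control, at −0.23 ± 0.13 (adjusted p = 0.175), and this call was lost without replicate 1 and without replicate 3.

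Rictor, the defining subunit of mTORC2, rose. Its total mRNA was at 109, 102 and 100.5 CPM in control cells, 143, 104 and 118.7 with LPS and 161, 148 and 166 with LPS and torin1, where every library lay above all others. Its polysome-associated mRNA was at 54.5, 71.4 and 73.3 CPM in control cells, 99.7, 68.9 and 93.4 with LPS and 140, 93.8 and 145 with torin1, so replicate 2 was lower than the others with LPS and with torin1. Against control, torin1 with LPS gave 0.61 ± 0.12 in total mRNA (adjusted p = 0.002) and 0.95 ± 0.20 in polysome-associated mRNA (adjusted p = 0.00466), and these calls held with each replicate left out. Torin1 against LPS gave 0.37 ± 0.12 and 0.56 ± 0.20, with calls lost without replicate 3 in total mRNA (adjusted p = 0.291) and without replicate 1 or 3 in polysome-associated mRNA. LPS alone gave 0.24 ± 0.12 and 0.39 ± 0.20, and both calls were lost without replicate 1 and without replicate 3.

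Mlst8, a subunit that both complexes share, fell with LPS. It was at 32.4, 32.0 and 28.1 CPM in total mRNA of control cells, 22.4, 17.4 and 22.3 with LPS and 25.5, 20.4 and 22.8 with torin1, and the control libraries lay above all others. The polysome-associated values were 47.2, 42.0 and 38.9 CPM in control cells, 37.4, 27.5 and 33.0 with LPS and 37.0, 27.6 and 28.5 with torin1. The change with LPS was −0.58 ± 0.13 in total mRNA (adjusted p = 0.00532) and −0.39 ± 0.17 in polysome-associated mRNA (adjusted p = 0.104, lost without replicate 3). With torin1 it was not called against LPS alone (0.15 and −0.05).

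Of the further subunits, Mapkap1, which belongs to mTORC2, was higher with torin1 than with LPS alone, at 0.26 ± 0.09 in total mRNA (adjusted p = 0.0572) and 0.29 ± 0.14 in polysome-associated mRNA (adjusted p = 0.205). The second call was lost without replicate 1 or 3, with only the compared treatments in the model and in DESeq2. Akt1s1, an inhibitory subunit of mTORC1, was called in total mRNA with LPS (0.32 ± 0.20, adjusted p = 0.216). This rested on 1 library, as replicate 2 with LPS was at 22.97 CPM and the others at 14.4 and 13.7, and the change without replicate 2 was −0.014 (0.56 without replicate 1). It was also lost without replicate 3 (adjusted p = 0.278). Exons of Akt1s1 overlap Tbc1d17 and Mir707.

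**Figure D2:**
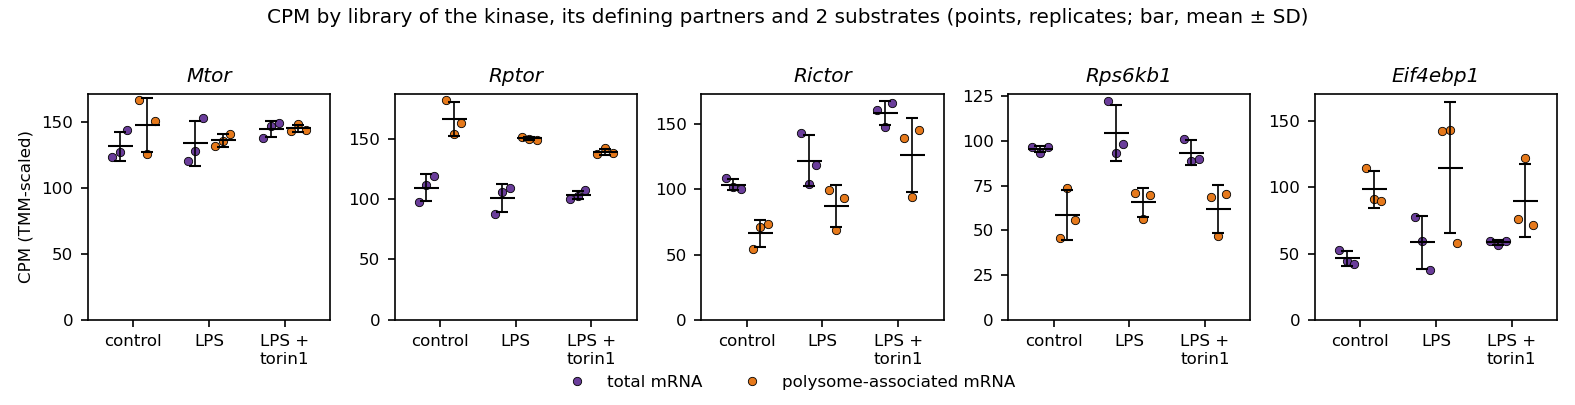
CPM (y axis, from 0) in each library for Mtor, Rptor, Rictor, Rps6kb1 and Eif4ebp1 under the 3 treatments (x axis), with points for the 3 replicates, bars for the mean ± SD, total mRNA in purple and polysome-associated mRNA in orange. Mtor stays between 120 and 166 CPM, Rictor reaches 148 to 166 in total mRNA with LPS and torin1, and Eif4ebp1 in polysome-associated mRNA with LPS has 1 low library at 57.7.

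The sestrins gave the largest changes. Sesn2, a stress-induced leucine sensor (chr4:132492032-132510501, GRCm38, minus strand), was at 10.0, 7.87 and 7.86 CPM in total mRNA of control cells, 69.3, 46.5 and 20.5 with LPS and 7.65, 7.07 and 6.42 with LPS and torin1. Its polysome-associated mRNA was at 19.01, 13.2 and 16.1 CPM in control cells, 124.6, 94.6 and 27.4 with LPS and 10.3, 15.7 and 7.37 with torin1. Every LPS library lay above every library of the other treatments, and replicate 3 was the lowest of the LPS libraries in both RNA types. Sesn2 was 5.29-fold higher with LPS in total mRNA (2.40 ± 0.35, adjusted p = 0.00033) and 5.11-fold higher in polysome-associated mRNA (2.35 ± 0.48, adjusted p = 0.00357). Torin1 lowered it again, by 6.44-fold (−2.69 ± 0.36, adjusted p = 0.000658) and 7.27-fold (−2.86 ± 0.49, adjusted p = 0.00473). Between LPS with torin1 and control the changes of −0.28 ± 0.35 and −0.51 ± 0.46 were not called (adjusted p = 0.542 and 0.422), although the replicate block called the latter (−0.60, adjusted p = 0.248).

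Sesn1, a relative that p53 is known to induce (chr10:41809935-41908424, GRCm38, plus strand), fell with LPS. It was at 43.4, 30.8 and 43.8 CPM in total mRNA of control cells, 7.69, 8.51 and 7.83 with LPS and 8.93, 8.48 and 7.54 with LPS and torin1. Polysome-associated Sesn1 was at 40.4, 29.1 and 41.4 CPM in control cells, 7.52, 5.67 and 7.07 with LPS and 8.39, 7.56 and 9.12 with torin1. Control libraries were far above all others, and the LPS libraries with and without torin1 overlap in total mRNA. The change with LPS was −2.29 ± 0.16 in total mRNA (adjusted p = 2.7e-06) and −2.46 ± 0.19 in polysome-associated mRNA (adjusted p = 1.23e-05). With torin1 against LPS alone it changed by 0.05 ± 0.15 and 0.33 ± 0.19 (adjusted p = 0.823 and 0.261), of which the block called the second (0.34, adjusted p = 0.112). The difference between the responses of the 2 sestrins was not tested. Per exon length, Sesn1 was at 9.87 ± 1.86 RPKM (SD, n = 3) and Sesn2 at 2.47 ± 0.36 in total mRNA of control cells, and at 2.01 ± 0.11 and 13.1 ± 7.03 with LPS, which reverses their order.

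**Figure D3:**
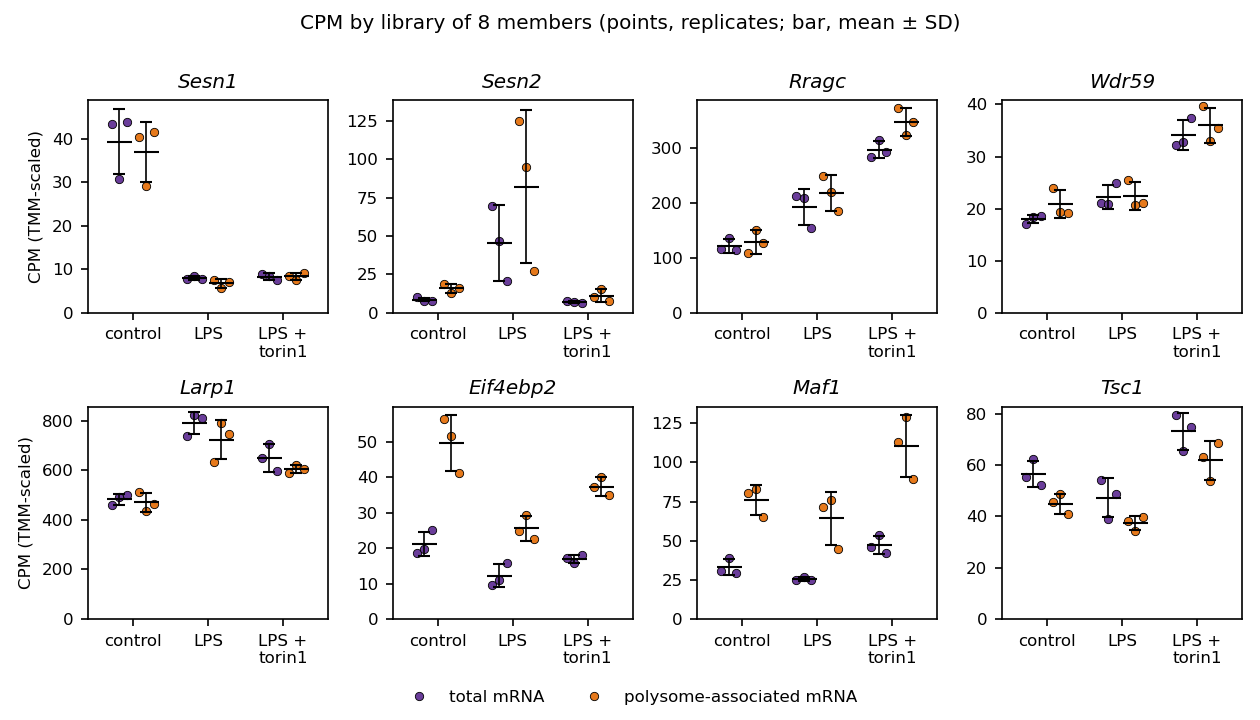
CPM (y axis, from 0) in each library of 8 members under the 3 treatments (x axis), with points for the 3 replicates, bars for the mean ± SD, total mRNA in purple and polysome-associated mRNA in orange. Sesn2 is high with LPS alone, Sesn1 in control cells alone, and Rragc steps up from a mean of 121 CPM in total mRNA of control cells to 192 with LPS and 296 with LPS and torin1.

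Rragc, a Rag GTPase that pairs with Rraga and contacts Rptor (chr4:123917446-123936997, GRCm38, plus strand), was raised by LPS and raised further with torin1. Its total mRNA was at 115, 135.9 and 113.1 CPM in control cells, 213, 209 and 154 with LPS and 283, 313 and 292 with LPS and torin1. Polysome-associated Rragc was at 108, 150 and 127 CPM in control cells, 249, 219 and 185 with LPS and 372, 322 and 346 with torin1. The 3 treatments did not overlap in either RNA type. LPS gave 0.66 ± 0.14 in total (adjusted p = 0.00281) and 0.76 ± 0.17 in polysome-associated mRNA (adjusted p = 0.00589). Torin1 added 0.63 ± 0.14 to the LPS level (adjusted p = 0.00762) and 0.70 ± 0.17 (adjusted p = 0.0222), the latter lost without replicate 3 (adjusted p = 0.290). LPS with torin1 stood 2.44-fold above control in total mRNA (1.29 ± 0.14, adjusted p = 3.99e-05) and 2.75-fold in polysome-associated mRNA (1.46 ± 0.17, adjusted p = 0.000119).

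Upstream windows of 250 bases were searched on both strands, since lysosomal and nutrient-sensing genes are known targets of TFEB and its relatives, which bind the CLEAR element with the E-box core CACGTG. RefSeq (GRCm38.p6) held a window for 35 of the 41 members, and 5 of them (14.3%: Rragc, Rheb, Lamtor4, Lamtor1 and Tbc1d7) had CACGTG, compared with 6.02% of 32851 promoters. The C/EBP-ATF element TGATGNAA was in the windows of Lamtor4 and Akt2 (5.71%, against 3.45% of promoters), and the forkhead motif GTAAACA in those of Mapkap1 and Akt1 (5.71%, against 3.17%). Members were counted once per gene and the background once per window, so the shares are of unlike units where a gene has several windows. These are letter matches in a fixed window, and no binding was measured. The 5 members with CACGTG were not called alike in the main tests of torin1 against LPS. Rragc was higher in both RNA types and Lamtor1 in total mRNA only, whereas Rheb, Lamtor4 and Tbc1d7 were not called. The windows of Rragc and Lamtor4 are printed because both are among the members given by library and hold CACGTG, which is in capitals, as is the reverse-strand match to TGATGNAA in Lamtor4.
Rragc, chr4:123917183-123917432, plus strand: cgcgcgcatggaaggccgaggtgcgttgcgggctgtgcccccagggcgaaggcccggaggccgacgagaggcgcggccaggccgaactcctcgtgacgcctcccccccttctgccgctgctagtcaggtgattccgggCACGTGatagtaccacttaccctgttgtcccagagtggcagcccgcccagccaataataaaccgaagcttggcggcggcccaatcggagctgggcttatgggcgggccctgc
Lamtor4, chr5:138255232-138255481, plus strand: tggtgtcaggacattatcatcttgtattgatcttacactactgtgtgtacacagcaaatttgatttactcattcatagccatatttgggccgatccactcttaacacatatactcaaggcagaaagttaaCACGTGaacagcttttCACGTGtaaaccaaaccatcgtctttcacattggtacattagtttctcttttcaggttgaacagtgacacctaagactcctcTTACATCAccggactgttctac
Lamtor4 has CACGTG at 120 to 115 and at 104 to 99 bases before its RefSeq start, with the other motif at 22 to 15 bases.

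Lamtor4, a Ragulator subunit, was not called with LPS in the main test of either RNA type. Its total mRNA was at 14.0, 16.1 and 15.1 CPM in control cells, 10.5, 15.2 and 13.3 with LPS and 12.3, 17 and 15.7 with LPS and torin1. The polysome-associated values were 28.6, 38.9 and 30.7 CPM in control cells, 27.5, 38.2 and 20.6 with LPS and 18.02, 31.8 and 15.2 with torin1, with replicate 2 the highest under each treatment. In the main tests Lamtor4 was called in 1 comparison, polysome-associated mRNA of LPS with torin1 against control, at −0.57 ± 0.30 (adjusted p = 0.175). That call was lost without replicate 1 and without replicate 3. Without replicate 2, Lamtor4 was also called lower on polysomes with LPS (−0.32, adjusted p = 0.213) and with torin1 against LPS (−0.51, adjusted p = 0.096). The replicate block added calls in total mRNA with LPS (−0.23, adjusted p = 0.101) and with torin1 against LPS (0.21, adjusted p = 0.149), and on polysomes with torin1 against LPS (−0.41, adjusted p = 0.114).

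Rraga, the partner of Rragc, was higher with LPS by 0.51 ± 0.14 in total mRNA (adjusted p = 0.0136) and by 0.49 ± 0.18 in polysome-associated mRNA (adjusted p = 0.0609). In total mRNA it was at 19.5, 26.5 and 26.1 CPM in control cells and at 30.9, 35.9 and 35.6 with LPS, with no overlap. Its changes of 0.07 and 0.17 with torin1 against LPS alone were not called. The call with LPS in polysome-associated mRNA was lost without replicate 1 (adjusted p = 0.329) and without replicate 3. Lamtor3, a scaffold subunit of Ragulator, was higher with LPS at 0.27 ± 0.13 and 0.43 ± 0.15 in total and polysome-associated mRNA (adjusted p = 0.118 and 0.0495), and both calls were lost without replicate 1. Lamtor1, which anchors Ragulator in the lysosomal membrane, was lower with LPS (−0.19 ± 0.12, adjusted p = 0.241) and higher with torin1 than with LPS alone (0.27 ± 0.12, adjusted p = 0.131) in total mRNA. The first of these was lost under 6 of 9 alternatives and the second under 2. Slc38a9, an arginine-sensing lysosomal transporter, was higher with torin1 than with LPS alone by 0.21 ± 0.12 in total mRNA (adjusted p = 0.222), which was lost under 6 of 9 alternatives and was 0.32 without replicate 1.

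Tsc1, a subunit of the TSC complex that restrains mTORC1, was called lower with LPS, and Rheb, which activates mTORC1, higher. These calls did not hold with every replicate left out, and the difference between the genes was not tested. Torin1 raised Tsc1. Tsc1 was at 55.2, 62.2 and 52.1 CPM in total mRNA of control cells, 54.3, 39.1 and 48.7 with LPS and 79.5, 65.3 and 74.7 with LPS and torin1. The polysome-associated values were 45.6, 48.5 and 40.8 CPM in control cells, 38.2, 34.3 and 39.7 with LPS and 63.1, 53.7 and 68.6 with torin1. The torin1 libraries lay above all others in both RNA types. Relative to LPS alone, torin1 raised it by 0.63 ± 0.13 in total mRNA (adjusted p = 0.00696) and 0.75 ± 0.14 in polysome-associated mRNA (adjusted p = 0.00794). With LPS, Tsc1 changed by −0.26 ± 0.13 and −0.27 ± 0.14, calls that were lost without replicate 2 in total mRNA (adjusted p = 0.717) and without any 1 of the replicates in polysome-associated mRNA. The polysome-associated call of Tsc1 was also lost in DESeq2 (adjusted p = 0.27). Rheb was higher with LPS by 0.31 ± 0.16 in total mRNA (adjusted p = 0.143) and 0.31 ± 0.17 in polysome-associated mRNA (adjusted p = 0.204). Replicate 1 with LPS was the highest in both, at 94.8 CPM in total and 86.0 CPM in polysome-associated mRNA, and without it the adjusted p was 0.422 and 0.899. The polysome-associated call was also lost without replicate 3 (adjusted p = 0.332), and the change was 0.47 without replicate 2. Tsc2 and Tbc1d7, the other subunits of the complex, were not called without the block, with log2 fold changes of −0.12 and −0.06 with LPS in total mRNA.

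Depdc5, the GATOR1 subunit that binds the Rag GTPases, was lowered by LPS. It was at 58.7, 62.3 and 60.3 CPM in total mRNA of control cells, 37.7, 37.0 and 39.2 with LPS and 46.7, 44.8 and 45.2 with torin1, so the 3 treatments did not overlap. The polysome-associated values were 60.9, 59.4 and 54.0 CPM in control cells, 42.7, 35.99 and 39.6 with LPS and 48.7, 40.3 and 46.1 with torin1. The change with LPS was −0.67 ± 0.08 in total mRNA (adjusted p = 8.99e-05) and −0.56 ± 0.14 in polysome-associated mRNA (adjusted p = 0.00904). With torin1 it was higher than with LPS alone by 0.26 ± 0.08 in total mRNA (adjusted p = 0.0334). In polysome-associated mRNA the change was called with the replicate block (0.22, adjusted p = 0.215) and in one model over all libraries (0.19, adjusted p = 0.174), but not in the main test. Nprl2 and Nprl3, the other GATOR1 subunits, were higher with torin1 than with LPS alone in total mRNA, by 0.27 ± 0.16 (adjusted p = 0.238, lost under 5 of 9 alternatives) and 0.31 ± 0.11 (adjusted p = 0.0572). In polysome-associated mRNA their changes were 0.22 and 0.06, and neither was called.

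The GATOR2 genes moved in both directions. Wdr59 was at 17.1, 18.4 and 18.5 CPM in total mRNA of control cells, 21.0, 20.8 and 24.9 with LPS and 32.2, 32.7 and 37.4 with LPS and torin1. In polysome-associated mRNA it was at 23.9, 19.4 and 19.2 CPM in control cells, 25.5, 20.7 and 21.0 with LPS and 39.7, 32.9 and 35.4 with torin1, where no library overlapped the other treatments. Torin1 against LPS gave 0.62 ± 0.11 in total mRNA (adjusted p = 0.00331) and 0.71 ± 0.16 in polysome-associated mRNA (adjusted p = 0.0161), and the change with LPS was called in total mRNA (0.31 ± 0.11, adjusted p = 0.0475).

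Seh1l and Sec13, which also serve in the nuclear pore and, for Sec13, in COPII coats, were lower with torin1 than with LPS alone. Seh1l was at 100.7, 89.6 and 96.0 CPM in total mRNA of control cells, 115, 89.1 and 93.1 with LPS and 81.5, 69.6 and 75.8 with LPS and torin1. Its polysome-associated mRNA was at 99.9, 99.2 and 99.0 CPM in control cells, 111.9, 94.3 and 105.6 with LPS and 88.7, 71.3 and 77.9 with torin1, below all other libraries. Relative to LPS alone the changes were −0.39 ± 0.12 (adjusted p = 0.0309) and −0.37 ± 0.13 (adjusted p = 0.0903), the latter lost without replicate 1 or 3. Sec13 was at 145, 176 and 145 CPM in total mRNA of control cells, 195, 174 and 177 with LPS and 149, 171 and 144 with torin1. In polysome-associated mRNA it was at 227, 213 and 212 CPM in control cells, 262, 230 and 251 with LPS and 205, 189 and 204 with torin1, where the treatments did not overlap. The changes with torin1 against LPS were −0.23 ± 0.12 (adjusted p = 0.155) and −0.29 ± 0.13 (adjusted p = 0.151), and both calls were lost without replicate 1 and without replicate 3. With LPS, Sec13 was called higher in total mRNA (0.23, adjusted p = 0.127), which was also lost without replicate 1 and without replicate 3. On polysomes it was called higher with LPS with the replicate block (0.19, adjusted p = 0.185). In LPS with torin1 against control, Sec13 was not called in the main test of either RNA type. Wdr24 was lower with LPS in total mRNA (−0.25 ± 0.11, adjusted p = 0.0787, lost without replicate 1), and Mios changed by −0.03.

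Among the insulin arm, Akt2 was higher with LPS by 0.41 ± 0.09 in total mRNA (adjusted p = 0.00334). It was at 50.4, 50.9 and 46.5 CPM in control cells, 65.1, 68.2 and 63.4 with LPS and 66.4, 66.3 and 59.7 with LPS and torin1, so every LPS-treated library lay above the control libraries. In polysome-associated mRNA the change with LPS was 0.47 ± 0.22 (adjusted p = 0.127, lost without replicate 1), and torin1 against LPS was not called in either RNA type. Reads that also match the pseudogene Akt2-ps could have been split between the copies. Akt1, the main AKT of most cells, changed by −0.03 with LPS in total mRNA, and was called in polysome-associated mRNA of LPS with torin1 against control (−0.36 ± 0.20, adjusted p = 0.176). There it was at 514, 719 and 491 CPM with torin1 and at 803, 671 and 784 in control cells, and the call was lost without replicate 1 or 3 and grew to −0.65 without replicate 2. Pdpk1, the kinase that activates AKT, was higher in LPS with torin1 than in control cells, by 0.22 ± 0.12 in total mRNA (adjusted p = 0.165) and 0.44 ± 0.18 in polysome-associated mRNA (adjusted p = 0.0728). The first of these calls was lost without replicate 3 and the second without replicate 1 or 3.

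Of the genes of AMPK, the energy sensor that restrains mTORC1, Prkaa1 was called lower and Prkab1 higher with LPS in total mRNA. The difference between these genes was not tested. Prkaa1, a catalytic subunit, fell by 0.38 ± 0.11 on the log2 scale in total mRNA (adjusted p = 0.0175), with control libraries at 100, 103 and 94.9 CPM and LPS libraries at 88.8, 69.6 and 71.0. Prkab1, a scaffold subunit, rose by 0.33 ± 0.09 (adjusted p = 0.0117), from 27.7, 27.9 and 26.5 CPM to 32.7, 35.8 and 34.4. Neither pair of groups overlapped. In polysome-associated mRNA Prkaa1 changed by −0.24 ± 0.17 (adjusted p = 0.314, or 0.246 with the replicate block) and Prkab1 by 0.29 ± 0.15 (adjusted p = 0.178, lost without replicate 2 or 3). Neither was called between torin1 with LPS and LPS alone. Prkag1 and Stk11, the kinase that activates AMPK, changed by 0.04 and −0.10 with LPS in total mRNA.

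Of the 6 direct effectors, 3 were called higher and 2 lower with LPS in total mRNA. Larp1, an RNA-binding repressor of TOP mRNAs, was at 459, 491 and 501 CPM in total mRNA of control cells, 740, 825 and 810 with LPS and 651, 707 and 596 with LPS and torin1, with no overlap between treatments. Polysome-associated Larp1 was at 513, 435 and 466 CPM in control cells, 636, 791 and 747 with LPS and 589, 623 and 605 with torin1. LPS gave 0.71 ± 0.10 in total mRNA (adjusted p = 0.000307) and 0.62 ± 0.15 in polysome-associated mRNA (adjusted p = 0.0082). Torin1 against LPS gave −0.28 ± 0.10 in total mRNA (adjusted p = 0.0625, lost without replicate 3), and −0.23 ± 0.15 in polysome-associated mRNA was not called (adjusted p = 0.312, or 0.249 with the replicate block).

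Eif4ebp2, an inhibitor of cap-dependent translation that mTORC1 inactivates, was called lower with LPS. It was at 18.5, 19.7 and 25.01 CPM in total mRNA of control cells, 9.65, 11.1 and 15.9 with LPS and 17.3, 15.8 and 17.98 with LPS and torin1. In polysome-associated mRNA it was at 56.3, 51.4 and 41.01 CPM in control cells, 24.9, 29.5 and 22.5 with LPS and 37.1, 40.0 and 34.9 with torin1, with no overlap between treatments. LPS gave −0.79 ± 0.19 in total mRNA (adjusted p = 0.0064) and −0.95 ± 0.17 in polysome-associated mRNA (adjusted p = 0.00179). Torin1 against LPS gave 0.48 ± 0.19 (adjusted p = 0.0829, lost without replicate 1) and 0.57 ± 0.17 (adjusted p = 0.0505, lost without replicate 1 or 3).

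Eif4ebp1, its better known relative, spread widely between replicates. It was at 52.9, 44.3 and 42.0 CPM in total mRNA of control cells, 78.02, 59.4 and 37.9 with LPS and 59.6, 56.3 and 59.5 with LPS and torin1. In polysome-associated mRNA it was at 115, 91.2 and 90.01 CPM in control cells, 143, 144 and 57.7 with LPS and 76.1, 122 and 72.0 with torin1. Replicate 3 with LPS lay below every control library in both RNA types. The call with LPS in total mRNA (0.33 ± 0.21, adjusted p = 0.224) was lost without replicate 1 (adjusted p = 0.506) and without replicate 2 and grew to 0.50 without replicate 3, and 0.22 ± 0.33 in polysome-associated mRNA was not called.

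Rps6kb1, which encodes S6K1, was not called with all replicates and no block. The replicate block called it in torin1 against LPS in total mRNA (−0.16, adjusted p = 0.173). Without replicate 2 it was called higher on polysomes with LPS (0.45, adjusted p = 0.0395) and in LPS with torin1 against control (0.46, adjusted p = 0.0331). It was at 96.6, 93.5 and 96.6 CPM in total mRNA of control cells, 122, 93.2 and 98.2 with LPS and 101.4, 89.0 and 90.1 with LPS and torin1. On polysomes it was at 45.8, 73.5 and 56.1 CPM in control cells, 71.0, 56.5 and 69.7 with LPS and 68.9, 46.8 and 70.4 with torin1, and all treatments overlap. Rps6kb2, the S6K2 gene, was higher with LPS in total mRNA (0.39 ± 0.16, adjusted p = 0.0609, lost without replicate 3), and the difference between the 2 genes was not tested. The block also called Rps6kb2 higher with LPS on polysomes (0.27, adjusted p = 0.178) and lower with torin1 against LPS in both RNA types (−0.25 and −0.34).

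Maf1, a repressor of RNA polymerase III that mTORC1 phosphorylates, was the member that torin1 raised most. It was at 30.9, 39.1 and 29.3 CPM in total mRNA of control cells, 24.9, 26.9 and 25.2 with LPS and 45.8, 53.3 and 42.0 with LPS and torin1, with no overlap. On polysomes it was at 80.5, 82.7 and 65.0 CPM in control cells, 71.7, 76.2 and 44.8 with LPS and 113.3, 128.7 and 89.6 with torin1. Its rise with torin1 against LPS was 0.88 ± 0.13 in total mRNA (adjusted p = 0.00133) and 0.81 ± 0.22 in polysome-associated mRNA (adjusted p = 0.0375). With LPS the change of −0.37 ± 0.13 was called in total mRNA (adjusted p = 0.0424) and −0.24 in polysome-associated mRNA was called only with the replicate block (adjusted p = 0.12).

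Whether the treatments altered translation efficiency, the change in polysome-associated mRNA beyond that in total mRNA, was tested with an interaction term in edgeR and a fold of at least 1.2. No member was called with LPS, with torin1 in LPS-treated cells or with both against control, and 0% of all genes were called in each comparison. Of all genes 44, 110 and 145 had an unadjusted p under 0.05, and of the members 0 did in each comparison. This test does not pair the RNA types of a lysate. Its counts over all genes are below the share of 0.05 expected with no change, so it is conservative. The smallest adjusted p of a member was 1.00, 1.00 and 0.998. With each lysate as a replicate block 0, 1 and 3 members had an unadjusted p under 0.05 and 0 were called, against 0, 25 and 3 of all genes, while DESeq2 called 0 members and 1, 7 and 1 of all genes, and an analysis of partial variance called 0 members and 9, 20 and 6 genes. Lamtor4 had the largest change with torin1 against LPS, at −0.61 ± 0.36, in the same direction in all 3 replicates (−0.85, −0.42 and −0.67). This SE is from the fit without the lysate block, so it does not use the pairing of the RNA types. With the block the smallest adjusted p of any member in this comparison was 0.993. With 3 lysates per treatment such a change can go undetected. Without replicate 2, 2 members passed in LPS with torin1 against control, Akt1s1 at −1.10 (adjusted p = 0.205) and Stk11 at −0.65 (adjusted p = 0.246).

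The members themselves were spread over a wide range of polysome association in each treatment. In control cells the log2 ratio of polysome-associated to total mRNA, relative to all genes, ran from −0.73 ± 0.15 for Prkaa1 to 1.23 ± 0.18 for Eif4ebp2. A ratio above 0 was called for 25 members and below 0 for 7, against 36.3% and 33.2% of all genes. Akt1 (1.23 ± 0.16), Akt2 (1.22 ± 0.17), Maf1 (1.2 ± 0.19), Lamtor4 (1.12 ± 0.26) and Eif4ebp1 (1.09 ± 0.30) were at the upper end, and Rps6kb1 (−0.71 ± 0.18), Rictor (−0.64 ± 0.18), Mios (−0.54 ± 0.16) and Slc38a9 (−0.54 ± 0.17) at the lower end. The median over the members was 0.40, and 0.03 over all genes.

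With LPS 22 members were called above 0 and 7 below (34.1% and 31.1% of all genes), and with LPS and torin1 19 above and 7 below (27.8% and 27.8%). In all 3 treatments the 7 below 0 were Prkaa1, Rps6kb1, Rictor, Mios, Slc38a9, Tsc1 and Mapkap1. The defining subunits of mTORC1 and mTORC2 lay on either side of 0, as Rptor was at 0.60 ± 0.11, 0.57 ± 0.11 and 0.43 ± 0.11 with control, LPS and LPS with torin1, and Rictor at −0.64, −0.48 and −0.33. The ratio was lower for members with longer coding sequences (Spearman's rho across the 41 genes −0.49, −0.52 and −0.49 in the 3 treatments, and −0.28, −0.32 and −0.30 across 10754 genes). These rhos are across genes that share the same libraries and are descriptions only.

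**Figure D4:**
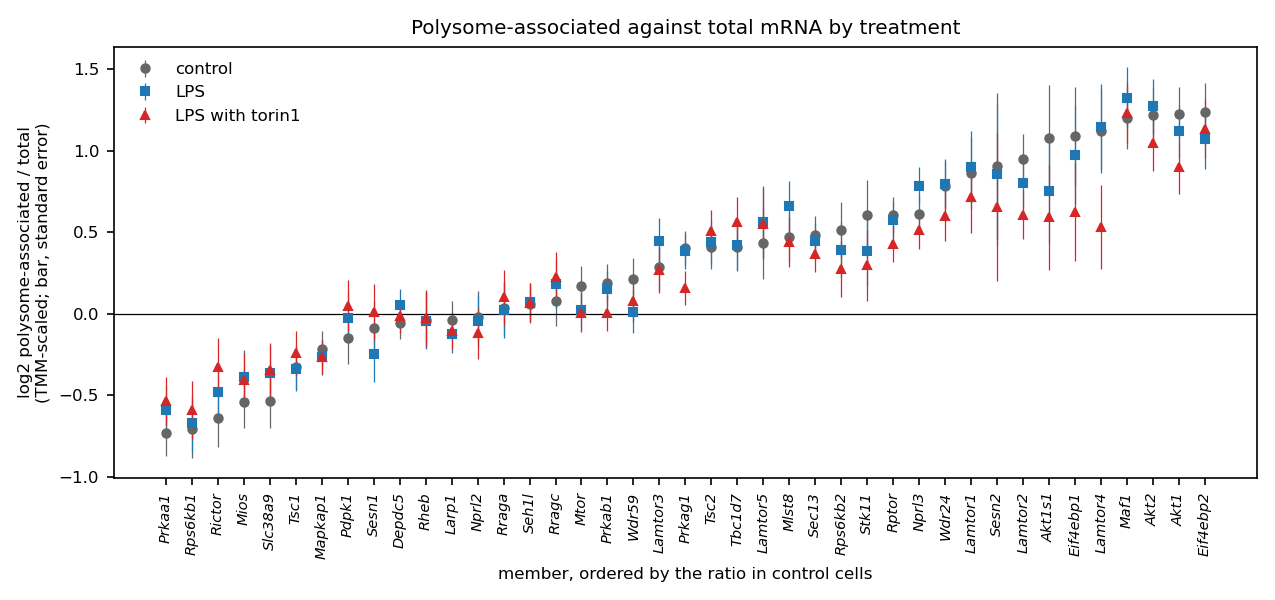
Log2 ratio of polysome-associated to total mRNA (y axis, TMM-scaled) for the 41 members, ordered by the ratio in control cells (x axis), with grey circles for control, blue squares for LPS, red triangles for LPS with torin1 and bars for the standard error. Prkaa1 at −0.73 and Eif4ebp2 at 1.23 bound the control values, and Lamtor4 falls from 1.14 with LPS to 0.53 with torin1, a difference that was not called.

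Per exon length, the members also differed widely in abundance in total mRNA of control cells. Akt1 (78.5 ± 6.68 RPKM, SD, n = 3), Lamtor5 (72.6 ± 9.31) and Larp1 (70.8 ± 3.21) were the most abundant and did not differ from each other beyond their spread. Rragc was at 36.4 ± 3.76 RPKM and its partner Rraga at 14.9 ± 2.45, and Mtor was at 13 ± 1.06, Rptor at 8.13 ± 0.84 and Rictor at 6.12 ± 0.25. Slc38a9 (1.13 ± 0.05) and Wdr59 (2.03 ± 0.09) were the least abundant.

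Of 66 further genes of the pathway, 55 were counted. LPS raised 21 and lowered 21 in total mRNA and raised 16 and lowered 19 in polysome-associated mRNA, and torin1 against LPS raised 21 and lowered 17 and raised 17 and lowered 13. The shares of all genes called, given above for each comparison, are the background of these counts and of those of the lists below, and with LPS in total mRNA they were 32.2% and 34.3%. In LPS with torin1 against control 22 were higher and 20 lower in total mRNA, and 16 and 17 in polysome-associated mRNA. For translation efficiency 0 were called. The 3 stress-induced genes were all higher with LPS and lower with torin1 than with LPS alone in both RNA types, as was Sesn2. In total mRNA Ddit4, an activator of the TSC complex, changed by 3.52 with LPS (adjusted p = 0.000146) and by −4.85 with torin1 (adjusted p = 0.00023), Trib3, which binds AKT, by 3.01 and −3.81, and Atf4, the transcription factor of the amino acid response, by 1.2 and −0.91.

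Of the 7 genes of complex assembly and further subunits, 2 were higher and 3 lower with LPS in total mRNA, and of the 7 genes of KICSTOR and the amino acid sensors 1 was higher and 4 were lower. Of 11 further substrates and effectors 3 were higher and 6 lower with LPS, and 6 were higher and 3 lower with torin1 than with LPS alone. Deptor, an inhibitory subunit of the mTOR complexes, changed by −1.60 in total mRNA (adjusted p = 3.68e-05) and was not called with torin1 against LPS. Rragb, the relative of Rraga, changed by −1.10 with LPS and by 0.63 with torin1, whereas Rraga rose with LPS. Pdcd4, an S6K substrate that inhibits eIF4A, was at 2.23 with torin1 against LPS (adjusted p = 0.00011), Rhebl1, a relative of Rheb, at 2.46, and the lipin gene Lpin1, whose product mTORC1 phosphorylates, at 1.75.

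Of 9 amino acid transporter genes 6 were higher and 1 lower with LPS in total mRNA, with a median log2 change of 0.35 beside −0.02 over all genes, led by Slc15a3 (3.98, a lysosomal histidine and peptide carrier) and Slc7a11 (3.47, the cystine transporter). Torin1 against LPS lowered 5 and raised 2, and Slc7a5, the leucine transporter, had the largest change at −1.40 (adjusted p = 8.12e-05). Sgk1, an mTORC2 substrate, was at 2.64 with LPS (adjusted p = 5.75e-05), and Pik3cb, a catalytic subunit of PI3K, at 1.45 with torin1 against LPS (adjusted p = 6.69e-05). Among 6 AMPK partners Prkag2, a regulatory subunit, was at −1.40 with LPS (adjusted p = 5.63e-05) and 0.50 with torin1, and Stradb, a partner of Stk11, at −0.83 and 0.90.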

How the data were processed

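The deposited values are unnormalized read counts per gene, with 18 libraries and 11243 genes. The authors made stranded, ribosomal RNA-depleted libraries, used Hisat2 to place read pairs on GRCm38, featureCounts with Ensembl genes to count them, and kept protein-coding genes with a count above 0 in every library. Whether counting used strand is not given in the sources used here.

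The tests were run in edgeR 4.0.16 under R 4.3.3 (quasi-likelihood, TMM, Benjamini-Hochberg over all genes), one model per RNA type with all 3 treatments, and translation efficiency and ratios of RNA types in one model over 18 libraries. CPM was TMM-scaled over 18 libraries, and RPKM used exon lengths of GENCODE. The study used anota2seq, which was not available. Alternatives were a replicate block, DESeq2 1.42.0, its size factors (RLE), an adjusted p of 0.05, a mean CPM of at least 1, one model over all libraries, only the compared treatments, each replicate left out, and for translation an analysis of partial variance (limma 3.58.1) and no fold threshold. Scripts were tested on simulated data.

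The numbers mark shared experiments, and total and polysome-associated mRNA came from the same lysates. Deviations of same-numbered libraries correlated at a mean r of 0.337 in total mRNA (9 of 9 pairs above 0.1), 0.29 in polysome-associated mRNA (5 of 9) and 0.48 between the RNA types of a lysate. No 2 libraries agreed within sampling noise (the smallest chi-squared between replicates was 26.3 per degree of freedom).

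The members and lists were chosen with earlier results of these data known. Levels by library are given for 6 fixed members and, per comparison and RNA type, for the 3 largest rises and falls among members called and moving alike in all 3 replicates, and for others chosen after their values were seen. At most 3 genes per further list are named. The counts of 1 further list are not reported here.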

Additional observations from a re-analysis of the deposited data

How the results depend on the processing

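Of 103 calls of members over the 6 comparisons of treatments, 103 held with the replicate block and with the CPM filter, 100 with RLE size factors, 97 in DESeq2, 96 with only the compared treatments and 93 with one model over all libraries. At an adjusted p of 0.05, 54 held. Without replicate 1, 2 or 3, 71, 92 and 63 held, and Akt1s1 in total mRNA with LPS changed sign without replicate 2 (-0.014; 0.56 without replicate 1).

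With the replicate block the members called in polysome-associated mRNA were 22 for LPS against control and 16 for LPS with torin1 against LPS; the block lost no call. At 0.05 the members called with LPS were 13 in total and 7 in polysome-associated mRNA, with torin1 against LPS 8 and 5, with torin1 and LPS against control 6 in polysome-associated mRNA, and for the ratio of RNA types with torin1 15. Leaving out 1 replicate gave 8 to 24 members with LPS in polysome-associated mRNA (8 without replicate 1 or 3, 24 without replicate 2), 4 to 13 (4 without replicate 3, 5 without replicate 1) for torin1 against LPS, 7 to 26 (7 without replicate 3, 11 without replicate 1) for LPS with torin1 against control, and 0 to 2 for translation efficiency in the last comparison. The cause was not tested.

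With 3 experiments per treatment, a change that was not called is not shown to be absent.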
